A study of Mus musculus with 3 samples.

Results

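Clustered protocadherins were followed in cultured mouse neural stem cells in which Phf2 had been lowered by RNA interference. The genes were chosen by name, as rows of the deposited gene table whose symbol begins with Pcdha, Pcdhg followed by a, b or c, or Pcdhb followed by a digit. The rule found 55 of the 16977 genes in the table, 12 of the alpha, 21 of the beta and 22 of the gamma cluster. The shPHF2 group was 2 libraries, described as biological replicates, of cells infected with a lentivirus carrying a short hairpin RNA against Phf2. The shControl group was 1 library of cells infected with a lentivirus carrying a control hairpin. All cells came from C57BL/6J embryos at stage E12.5 and grew on laminin with EGF at 20 ng/ml and FGF at 10 ng/ml. Total RNA was depleted of ribosomal RNA before stranded libraries were made. The labels do not say whether both shPHF2 libraries carry the same hairpin or whether infected cells were selected, and shControl, as a single library, has no error of its own.

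Protocadherins are cell surface proteins of the cadherin superfamily, and the clustered ones bind identical copies on a neighbouring cell. In the alpha and gamma clusters each gene name stands for a transcript that joins its own large first exon to small constant exons shared by the whole cluster, whereas each beta gene is a single exon with its own promoter. Each mammalian neuron switches on a small set of the alternate promoters, apparently at random, through DNA methylation and looping by CTCF and cohesin, and the resulting mix of proteins lets the branches of 1 neuron recognise and avoid each other. The C-type genes at the end of the alpha and gamma clusters are the exception, since their promoters are switched on by cell type rather than at random. PHF2 belongs to a family of histone demethylases and removes methyl groups from lysine 9 of histone H3 (H3K9).

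The clusters lie one after another on the plus strand of chromosome 18 (RefSeq on GRCm38, the mm10 build). The alpha cluster spans positions 36930285 to 37188897, the beta cluster 37264998 to 37521419 and the gamma cluster 37661775 to 37841873. The annotation lists 14 alpha, 22 beta and 22 gamma genes, and Pcdha1, Pcdha4 and Pcdhb1 had no row in the table used here. In GENCODE M21 the beta genes have 1 exon, while the alpha and gamma genes have 4, of which 2860 bases of the alpha and 2116 to 2119 bases of the gamma transcripts are shared with other members. Reads in those shared bases cannot be assigned to 1 gene, and the sources used here do not give how the counting treated them. Ambiguous reads made up 0.43% and 0.434% of the reads in the shPHF2 libraries and 0.461% in shControl. Beta values rest on exons of their own, apart from 455 bases that Pcdhb21 and Pcdhb22 share in GENCODE M21 but not in RefSeq.

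The shPHF2 libraries had 37171026 and 26302177 reads in genes, against 32898139 in the shControl library. Phf2 itself had 985 and 714 normalised reads in the shPHF2 libraries, against 2593 in shControl, so that its mean of 849 ± 192 (SD, n = 2) was 32.8% of the control (limma, log2 fold change -1.63, SE 0.24, adjusted p = 0.0085). All levels here are normalised reads, the reads of a gene divided by its library's size factor. For the neural stem cell label 10 markers were read, which all had reads in every library. They summed to 345110.0 and 388761 normalised reads in shPHF2 cells and 331508 in shControl cells. Reads alone cannot settle the label, because markers of other lineages also had them. Olig1, an oligodendrocyte lineage marker, had 37506 normalised reads in shControl. Of the 10 neural stem cell markers, Sox2 alone, a stem cell transcription factor, was called higher (limma, log2 fold change 0.68, adjusted p = 0.048) and 0 lower. Over all genes tested 7.22% were called higher and 7.11% lower. In bulk RNA, fewer cells that express a gene and less RNA per cell cannot be told apart.

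Seen as a whole, the clusters were higher in shPHF2 cells, with the most calls among the A-type gamma genes. Of the 55 members, 45 had a mean of at least 10 normalised reads over the libraries and could be tested, 1 of them (Pcdha12) only through its level in shPHF2 cells. The test called 6 of them higher (limma on log2 normalised reads plus 1, Benjamini-Hochberg adjusted p under 0.05 over the 14148 genes tested), namely Pcdhb17, Pcdhb22, Pcdhga2, Pcdhga5, Pcdhga6 and Pcdhga7. That is 13.3% of the members tested, against 7.22% of all genes tested that were called higher. The test called 0 members lower, against 7.11% of all genes, and the 16 members with an unadjusted p under 0.05 were all higher (35.6% of those tested). Of all genes, 31.2% had such a p in either direction and 15.8% had one and were higher. DESeq2 and edgeR also called 0 members lower. In 39 of the 45 members both shPHF2 libraries lay above shControl, which is 86.7%, against 41.4% of all genes tested, and in 1 (Pcdhgc4) both lay below it, against 41.8%. The median log2 fold change was 0.60 over the members tested, with 0.52 in shPHF2 replicate 1 and 0.71 in replicate 2, and -0.01 over all genes tested. The 6 calls rest on the settings of the test. Limma without the mean-variance trend, with quantile normalization, with no filter on low values or with a minimum mean of 1 called 0 members, with 10, 8, 11 and 14 members at an unadjusted p under 0.05, all higher. These are 22.2%, 17.8%, 20.0% and 26.4% of the members tested, while 23.3%, 26.2%, 22.9% and 25.8% of all genes had such a p in either direction and 12.4%, 13.3%, 11.5% and 13.2% were higher with it. The first 3 of these settings called no gene in the whole table, and a minimum mean of 1 called 240 genes higher and 239 lower, against 1021 and 1006 in the test used here.

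**Figure D1:**
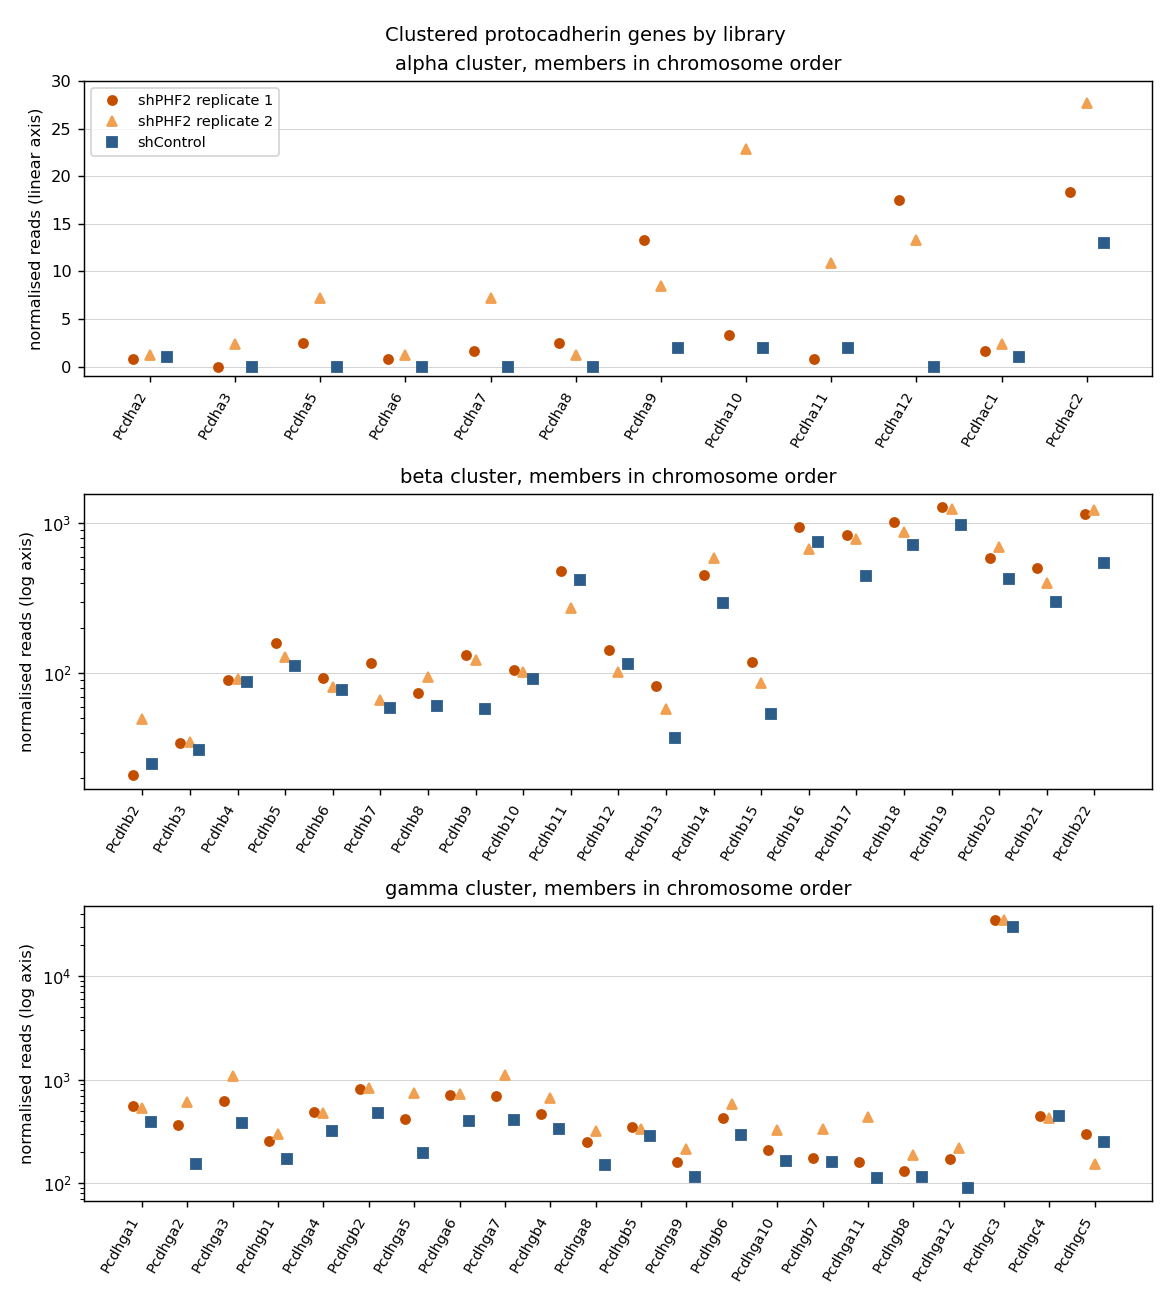
Normalised reads of every member in the 2 shPHF2 libraries (circles and triangles) and the shControl library (squares), with the members of each cluster in chromosome order. The alpha panel has a linear axis and stays under 30 reads, while the beta and gamma panels have log axes, and Pcdhgc3 stands above all other members at 30089.8 reads or more.

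The gamma cluster held the most RNA, and most of it was Pcdhgc3, a C-type gene whose protein in mice promotes dendrite branching and restrains Wnt signalling through the scaffold protein Axin1. Pcdhgc3 had 34828.5 and 35300.3 normalised reads in the shPHF2 libraries, against 30089.8 in shControl. It made up 81.0% and 76.9% of gamma reads in the shPHF2 libraries, against 84.8% in shControl. Per kilobase of its own exon sequence it reached 13562 and 13746 normalised reads in shPHF2 cells and 11717 in shControl cells, whereas the other gamma genes lay between 30.3 and 424 in the same libraries. The fitted log2 fold change of Pcdhgc3 was 0.22 (SE 0.23; limma, adjusted p = 0.57), with a 95% interval of -0.32 to 0.76.

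The A-type and B-type gamma genes are the 19 alternate isoforms, interleaved along the chromosome ahead of the C-type genes. In all 19 both shPHF2 libraries lay above shControl, and the median of their log2 fold changes was 0.77 (replicate 1 alone 0.56, replicate 2 alone 1.00). Summed, the A-type genes reached 4805 and 6800 normalised reads in shPHF2 cells, against 2881 in shControl, which is 1.67 and 2.36 times the control. The B-type genes summed to 2613 and 3236 in shPHF2 cells, against 1833 in shControl, which is 1.43 and 1.77 times the control. The test called 4 of 12 A-type genes and 0 of 7 B-type genes, and whether the types differ from each other was not tested. Over the cluster, 4 of 22 genes (18.2%) were called, against 7.22% of all genes tested that were called higher.

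Pcdhga2, an alternate isoform near the start of the gamma cluster (chromosome 18, 37668927 to 37841870), had the largest fitted increase of the gamma genes. It had 363 and 606 normalised reads in the shPHF2 libraries, against 155 in shControl, a mean of 485 ± 172 (SD, n = 2) and 3.14 times the control. The log2 fold change was 1.60 (SE 0.36; limma, adjusted p = 0.027). Both shPHF2 libraries lay above shControl, and replicate 2 lay well above replicate 1, a feature that most of the alternate gamma genes shared.

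Pcdhga5 (37694375 to 37841870) had 413 and 741 normalised reads in shPHF2 cells, against 195 in shControl, a mean of 577 ± 232 (SD, n = 2). Its mean was 2.95 times the control, and the fitted increase, which averages the log values, was 1.50 on the log2 scale (SE 0.37; limma, adjusted p = 0.036). Pcdhga7 (37714834 to 37841873) had 699 and 1107 in shPHF2 cells, against 411 in shControl, a mean of 903 ± 289 (SD, n = 2) and 1.10 higher on the log2 scale (SE 0.30; limma, adjusted p = 0.048). In both genes the lower shPHF2 library was still above shControl, and in normalised reads the gap between the shPHF2 libraries was wider than the gap from replicate 1 to shControl. The call of Pcdhga7 ended at a pseudocount of 5 (limma, adjusted p = 0.05 after rounding).

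Pcdhga6 (37707101 to 37841870), which lies between them, had the closest replicates of the called genes, with 715 and 722 normalised reads in shPHF2 cells, against 398 in shControl. Its mean was 719 ± 4.86 (SD, n = 2), 1.81 times the control, and its log2 fold change 0.85 (SE 0.23; limma, adjusted p = 0.047). DESeq2 did not call it (adjusted p = 0.068). The other called gamma genes had replicate 2 at 1.58 to 1.80 times replicate 1.

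The gamma genes nearest to the threshold on the other side were Pcdhgb2 and Pcdhga3. Pcdhgb2 was the most abundant B-type gene, with 817 and 834 normalised reads in shPHF2 cells, against 474 in shControl (log2 fold change 0.80, SE 0.22; limma, adjusted p = 0.051), and edgeR called it. Pcdhga3 had 619 and 1095 in shPHF2 cells, against 385 in shControl (log2 fold change 1.10, SE 0.34; limma, adjusted p = 0.069), and DESeq2 called it. Pcdhga11 had the widest spread of the gamma genes, with 161 and 434 in shPHF2 cells, against 112 in shControl, so that replicate 2 was 2.70 times replicate 1. Its fitted log2 fold change of 1.24 did not pass the test (limma, adjusted p = 0.17). The pseudogene Pcdhgb8 followed the others in direction, with 132 and 187 in shPHF2 cells, against 115 in shControl (limma, adjusted p = 0.49). At the low end of the range, Pcdhgb5 had 347 and 335 in shPHF2 cells, against 286 in shControl (log2 fold change 0.25; limma, adjusted p = 0.59).

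The other C-type gamma genes had fitted changes near or below 0. Pcdhgc4, the isoform that in mice keeps developing neurons alive, had 444 and 423 normalised reads in shPHF2 cells, against 448 in shControl. Its log2 fold change was -0.05 (SE 0.26; limma, adjusted p = 0.92), with a 95% interval of -0.64 to 0.55. Pcdhgc5, a late neuronal isoform, had 301 and 152 in shPHF2 cells, against 249 in shControl, so the control lay between the replicates. The log2 fold change of Pcdhgc5 was -0.22 (SE 0.44; limma, adjusted p = 0.78), and its 95% interval of -1.23 to 0.79 includes the median change of the A-type and B-type genes. The fitted change of Pcdhgc3 was just below that of Pcdhgb5, the smallest of the alternate genes. The difference between the C-type and the alternate genes was not tested, because the members of a cluster share libraries and are not replicates.

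Because Pcdhgc3 was so abundant, the sum of the gamma cluster moved less than its typical gene. The cluster summed to 42991 and 45911 normalised reads in shPHF2 cells, against 35500.4 in shControl, which is 1.21 and 1.29 times the control. Without Pcdhgc3, a choice made after its values were seen, it summed to 8163 and 10611 in shPHF2 cells, against 5410.5 in shControl, which is 1.51 and 1.96 times the control. The A-type and B-type genes made up 17.3% and 21.9% of gamma reads in the shPHF2 libraries and 13.3% in shControl. With 2 libraries against 1, an exact permutation test of any such value cannot go below a one-sided p of 0.333, so these sums are descriptions.

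**Figure D2:**
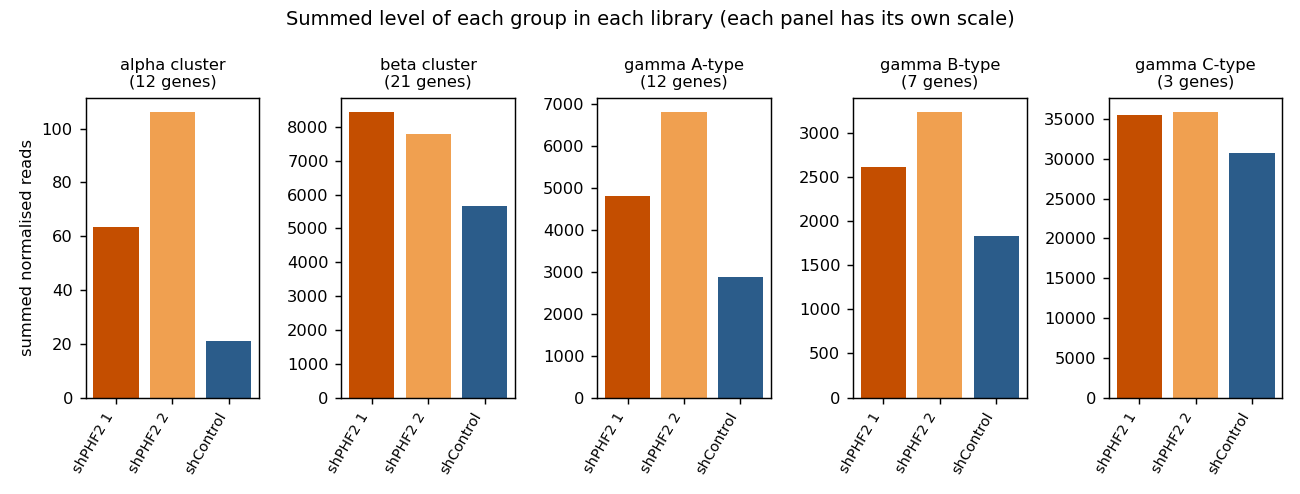
Summed normalised reads of each group of members (vertical axes start at 0 and differ between panels), with a bar for each of the 2 shPHF2 libraries and the shControl library. In every panel both shPHF2 bars are taller than the shControl bar, by the smallest ratio for the C-type gamma genes (1.16 and 1.17) and the largest for the alpha cluster (3.03 and 5.07).

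The beta genes, which lack constant exons and have been found alongside alpha and gamma proteins in shared adhesion complexes in mice, were also mostly higher in shPHF2 cells. The cluster summed to 8438 and 7807 normalised reads in shPHF2 cells, against 5678 in shControl, which is 1.49 and 1.37 times the control. All 21 genes were tested, and 2 of them (9.52%) were called higher, a share close to that of all genes. In 17 of the 21 both shPHF2 libraries lay above shControl (81.0%). Single genes had log2 fold changes between -0.21 and 1.13, with a median of 0.42 (replicate 1 alone 0.45, replicate 2 alone 0.35).

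Pcdhb22, the last gene of the cluster (chromosome 18, 37518353 to 37521419), had the largest fitted increase of the beta genes, with Pcdhb9 close behind. It had 1149.7 and 1238 normalised reads in shPHF2 cells, against 544 in shControl, a mean of 1194 ± 62.6 (SD, n = 2) and 2.19 times the control. The log2 fold change was 1.13 (SE 0.21; limma, adjusted p = 0.015), and both edgeR and DESeq2 called it as well. Pcdhb21, its neighbour with the shared bases, had 501 and 398 in shPHF2 cells, against 300.0 in shControl (log2 fold change 0.57; limma, adjusted p = 0.21).

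Pcdhb17 (37485021 to 37488290) had 832 and 786 normalised reads in shPHF2 cells, against 446 in shControl, a mean of 809 ± 32.5 (SD, n = 2) and 1.82 times the control. The log2 fold change was 0.86 (SE 0.23; limma, adjusted p = 0.042), and DESeq2 did not call it (adjusted p = 0.055). Both called beta genes had replicates that differed by far less than either differed from shControl. Pcdhb9 had a fitted change like that of Pcdhb22 at a much lower level, with 133 and 122 in shPHF2 cells, against 57.8 in shControl, and did not pass the test (log2 fold change 1.12, SE 0.43; limma, adjusted p = 0.12).

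The genes at the end of the beta cluster had the higher levels. The last 7 genes, Pcdhb16 to Pcdhb22, held 6335 and 5926 of the normalised beta reads in shPHF2 cells and 4156 in shControl, and the 14 genes ahead of them 2103 and 1881 in shPHF2 cells and 1522 in shControl. Per kilobase, the median gene of the last 7 had 180.2 and 174 normalised reads in shPHF2 cells and 120.4 in shControl, and the median of the first 14 had 35.1 and 29.4 in shPHF2 cells and 20.0 in shControl. Both called genes were among the last 7, where the median log2 fold change was 0.57, against 0.36 in the first 14. This split was made after the values were seen, and no test of it was run. Pcdhb19 was the most abundant beta gene in every library, with 1286 and 1245 in shPHF2 cells, against 977 in shControl (log2 fold change 0.37; limma, adjusted p = 0.24).

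A few beta genes stood at or on both sides of the control. Pcdhb11 had 484 and 274 normalised reads in shPHF2 cells, against 421 in shControl (log2 fold change -0.21; limma, adjusted p = 0.74). Pcdhb16 had 952 and 675 in shPHF2 cells, against 747 in shControl (log2 fold change 0.10; limma, adjusted p = 0.83). For Pcdhb2 and Pcdhb12 too the control lay between the replicates. Pcdhb4 differed little between libraries, with 90.9 and 91.6 in shPHF2 cells, against 87.7 in shControl, though at that level the 95% interval of its log2 fold change ran from -0.96 to 1.07.

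**Figure D3:**
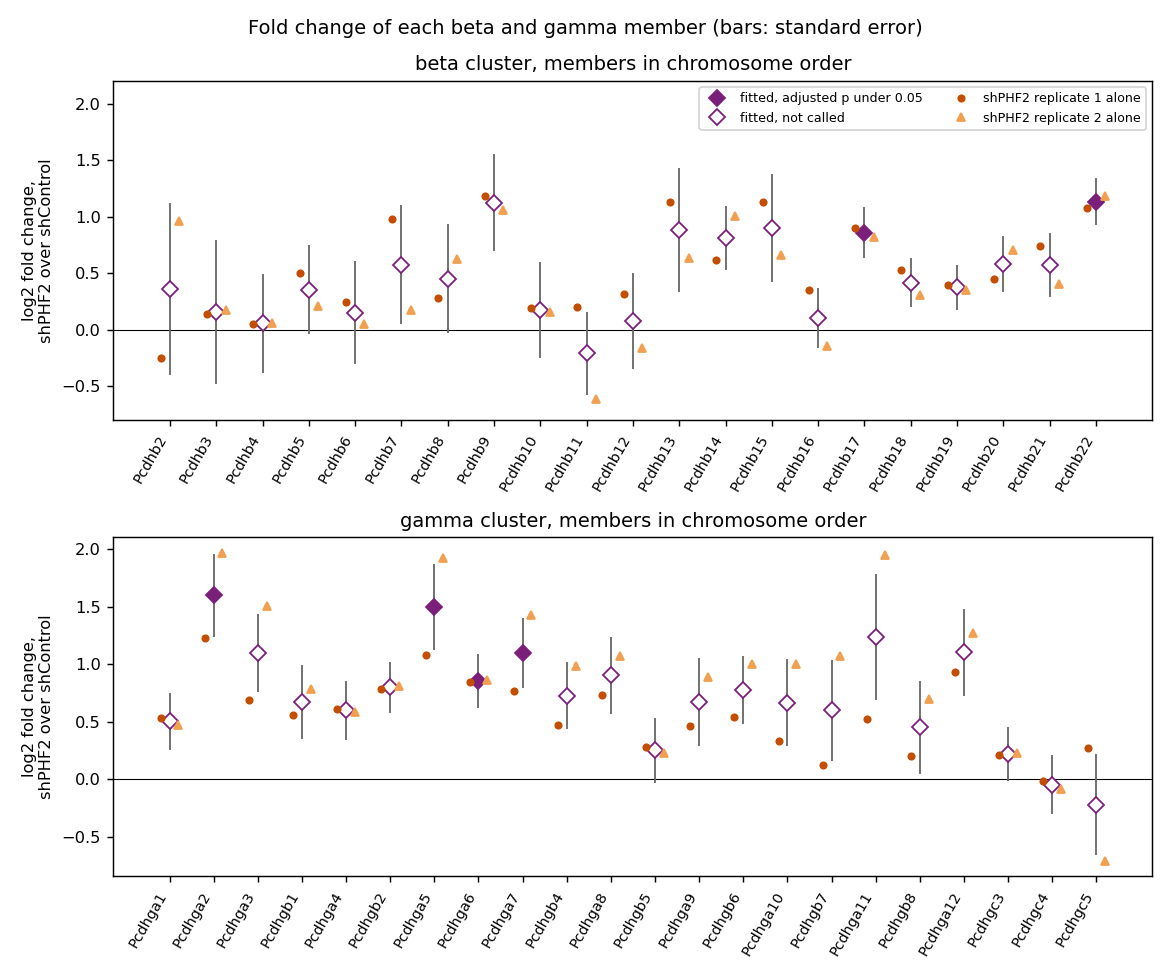
Log2 fold change of shPHF2 over shControl for each beta (top) and gamma (bottom) gene in chromosome order, fitted over the 2 shPHF2 libraries (diamonds, bars are standard errors, filled where the adjusted p was under 0.05) and for each shPHF2 replicate alone (circles and triangles). The filled diamonds are Pcdhb17 and Pcdhb22 above and Pcdhga2, Pcdhga5, Pcdhga6 and Pcdhga7 below, and the gamma triangles of replicate 2 mostly lie above the circles of replicate 1.

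The shPHF2 replicates departed from the control unequally, and not alike in the clusters. Among the A-type and B-type gamma genes replicate 2 lay above replicate 1 in 16 of 19 (84.2%), against 51.0% of all genes tested. Among the beta genes it did so in 7 of 21 (33.3%). The alternate gamma genes with the widest gaps after Pcdhga11 were Pcdhgb7, with replicate 2 at 1.92 times replicate 1, and Pcdhga5, at 1.80 times. Pcdhgc3 was at 1.01 times. Phf2 was also lower in replicate 2, at 27.5% of the control, against 38.0% in replicate 1. Replicate 2 was the shallowest library, and the labels give no batch. The part of depth or of the remaining Phf2 level in these gaps was not tested.

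**Figure D4:**
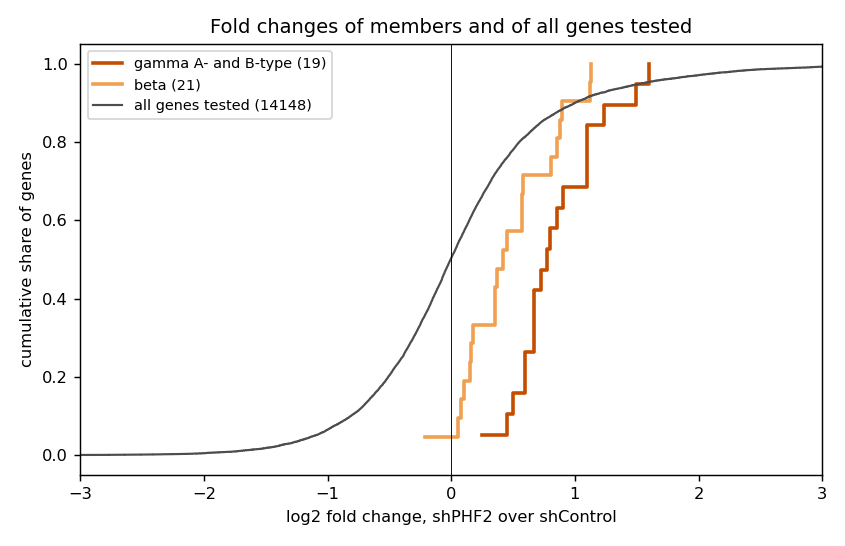
Cumulative share of genes (vertical axis) against the fitted log2 fold change of shPHF2 over shControl (horizontal axis) for the 19 A-type and B-type gamma genes, the 21 beta genes and all 14148 genes tested. The gamma curve lies wholly to the right of 0 with a median of 0.77, the beta curve crosses 0 with 1 gene and has a median of 0.42, and all genes are centred at -0.01.

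The alpha genes were close to undetected in these cells. The whole cluster had 76 and 88 reads in the shPHF2 libraries, against 21 in the shControl library, and made up 0.12% and 0.20% of member reads in shPHF2 cells and 0.051% in shControl. After scaling by size factors the sums were 63.4 and 106 in shPHF2 cells, against 20.9 in shControl. The ratio was 3.86, with an exact 95% interval of 2.44 to 6.41 that covers counting error only, and it was 3.03 for replicate 1 and 5.07 for replicate 2. The interval compares these libraries and not the conditions.

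The 10 alternate alpha genes gave most of that difference. They had 52 and 63 reads in the shPHF2 libraries, against 7 in shControl, 8.12 times as many after scaling (counting interval 3.82 to 20.7). Reads were found for 9 and 10 of the 10 in the shPHF2 libraries and for 4 in shControl. Which gene led differed between the shPHF2 libraries. Replicate 1 had 21 reads of Pcdha12 and 16 of Pcdha9, and replicate 2 had 19 of Pcdha10 and 11 of Pcdha12.

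Of the alpha genes, Pcdha12 and Pcdhac2 passed the filter, and limma, edgeR and DESeq2 called 0 of them (1 had an unadjusted p under 0.05 in limma). Pcdha12 had 17.5 and 13.3 normalised reads in shPHF2 cells, against 0 reads in shControl, so that its mean was at least 5.14-fold higher than a floor of 3 reads in the control library. It passed the filter only through the shPHF2 libraries (limma, adjusted p = 0.070). Pcdhac2, a C-type gene that serotonergic axons of mice need to space themselves, had 18.3 and 27.7 in shPHF2 cells, against 13.0 in shControl (log2 fold change 0.76, SE 0.81; limma, adjusted p = 0.57). The C-type alpha genes together had 24 and 25 reads in the shPHF2 libraries, against 14 in shControl, 1.73 times as many after scaling (counting interval 0.940 to 3.39). Pcdha5 and Pcdha7 also had no reads in shControl, and their shPHF2 means were 1.63 and 1.49 times the same floor, 2.99 normalised reads. Only replicate 2 lay above that floor, with 7.23 normalised reads (6 reads) of each gene. Replicate 1 had 2.50 of Pcdha5 and 1.67 of Pcdha7. The other 8 alpha genes stayed below the minimum mean, at 22.9 normalised reads or fewer in any library.

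The authors' deposited table, with its own fold changes and adjusted p-values, called 5 members. It has an adjusted p for 41 of the 55 members, and all 5 called were higher, against 8.04% of all genes with an adjusted p, and 0 were lower, against 7.96%. In the authors' deposited table these are Pcdhb22 (adjusted p = 0.0023), Pcdhga2 (0.0036), Pcdhga3 (0.026), Pcdhga5 (0.0051) and Pcdhga7 (0.018). Pcdhb17 (0.051) and Pcdhga6 (0.063) lie just outside the threshold in the authors' deposited table.

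Genes whose products choose or silence protocadherin promoters were measured next to the clusters. Of 11 genes for CTCF, cohesin and its loaders, 0 were higher and 2 were lower, against 7.22% and 7.11% of all genes, and the median log2 fold change was -0.57. The lower genes encode alternative cohesin subunits. Stag2 had 6765 and 6205 normalised reads in shPHF2 cells, against 10670.5 in shControl, and fell by 0.72 on the log2 scale (limma, adjusted p = 0.037). Stag1 had 3509 and 3136 in shPHF2 cells, against 5417 in shControl, and fell by 0.71 (limma, adjusted p = 0.037). Ctcf, whose protein anchors the loops at the promoters, had 4505 and 4210.1 in shPHF2 cells, against 5957 in shControl, and did not pass the test (limma, adjusted p = 0.12).

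Of 18 genes for DNA methylation, H3K9 methylation and related silencing, 0 were higher and 6 were lower, beside the same shares of all genes, with a median log2 fold change of -0.28. Dnmt1, the maintenance DNA methyltransferase, had 7465 and 5937 normalised reads in shPHF2 cells, against 15492 in shControl, and fell by 1.22 on the log2 scale (limma, adjusted p = 0.012). Smchd1, a chromosome-structure protein that represses the clusters in mice, had 5005 and 4184 in shPHF2 cells, against 7749 in shControl, and fell by 0.76 (limma, adjusted p = 0.036). Setdb1, a methyltransferase for H3K9 that maintains the chromosomal domain of the clusters in mouse neurons, had 3795 and 3684 in shPHF2 cells, against 6019 in shControl, and fell by 0.69 (limma, adjusted p = 0.036). The others were Cbx5, which encodes the heterochromatin protein HP1 alpha and fell by 1.62, and the H3K9 methyltransferase genes Suv39h2, which fell by 1.38, and Suv39h1, which fell by 0.82 (limma, adjusted p = 0.0094, 0.0085 and 0.026). Dnmt3b, which sets the methylation of these promoters in the early mouse embryo, was low, with 161 and 109 in shPHF2 cells, against 260.2 in shControl (limma, adjusted p = 0.14). The part of any of these genes in the protocadherin levels was not tested.

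Of 17 genes for proteins that clustered protocadherins bind or act through, 2 were higher and 1 was lower. Over all genes tested the shares were 7.22% and 7.11%. The median log2 fold change of the 17 genes was 0.06. Ptk2b, encoding the kinase PYK2 that the cytoplasmic domains of these protocadherins inhibit, had 44.2 and 183 normalised reads in shPHF2 cells, against 3.99 in shControl (log2 fold change 4.19, SE 0.89; limma, adjusted p = 0.022). Marcks, an actin-linked substrate of protein kinase C downstream of gamma protocadherins, had 31102 and 32363 in shPHF2 cells, against 61297 in shControl, and fell by 0.95 (limma, adjusted p = 0.039). Ret, a receptor kinase that phosphorylates protocadherins, had 110.0 and 24.1 normalised reads in shPHF2 cells, against 1.99 in shControl, which was 2 reads (log2 fold change 4.14, SE 1.02; limma, adjusted p = 0.035). Both genes called higher in this list, Ptk2b and Ret, reached the minimum mean only through the shPHF2 libraries. Of 6 genes for the proteases that cut protocadherins at the membrane, 2 were higher and 0 lower, beside the same shares of all genes. Both belong to the gamma-secretase complex. Psen2 had 303 and 371 in shPHF2 cells, against 106 in shControl (log2 fold change 1.66; limma, adjusted p = 0.019), and Ncstn had 4878 and 4979 in shPHF2 cells, against 3011 in shControl (log2 fold change 0.71; limma, adjusted p = 0.033).

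The members were also set beside a fixed list of genes around them on chromosome 18, which need not hold every gene there. Ahead of the alpha cluster 18 genes were tested, of which 0 were higher and 2 lower, with a median log2 fold change of 0.15. The lower genes were Wdr55, which fell by 1.02, and Slc35a4, which fell by 0.86 (limma, adjusted p = 0.023 and 0.021). After the gamma cluster 7 were tested, of which 4 were higher and 0 lower, with a median of 0.85. Over all genes tested 7.22% were higher and 7.11% lower. Those 4 were Fchsd1, Pcdh1, Gnpda1 and Spry4, at 115.6, 344.0, 485.7 and 744.4 kb from the end of the gamma cluster. Their log2 fold changes were 1.36, 1.25, 1.37 and 0.85 (limma, adjusted p = 0.032, 0.014, 0.0085 and 0.049). The nearest tested gene on that side, Hdac3 at 94.0 kb, had 2965 and 3173 normalised reads in shPHF2 cells, against 3813 in shControl (log2 fold change -0.31; limma, adjusted p = 0.26). Pcdh1, a protocadherin outside the clusters, had 964 and 892 normalised reads in shPHF2 cells, against 389.7 in shControl. Between the beta and gamma clusters 2 genes were tested, of which 1 was higher and 0 lower. The higher one was Taf7, a gene for a subunit of the general transcription factor TFIID. Taf7 had 1253 and 1435 in shPHF2 cells, against 708 in shControl (limma, log2 fold change 0.92, SE 0.21, adjusted p = 0.027). For Slc25a2, with 49.2 and 14.5 in shPHF2 cells, against 28.9 in shControl, the control lay between the replicates (log2 fold change -0.10). The 3 sides were chosen by position, and whether they differ was not tested.

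**Figure D5:**
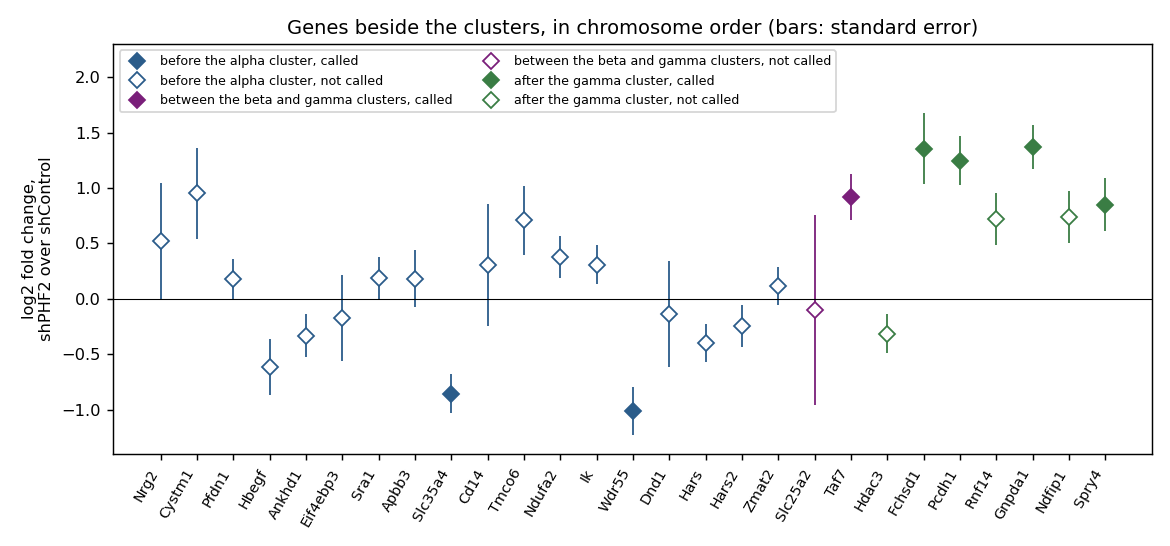
Log2 fold change of shPHF2 over shControl, with standard errors, for the tested genes of the list around the clusters in chromosome order (filled where the adjusted p was under 0.05). Before the alpha cluster 2 genes are filled and both lie below 0, between the clusters Taf7 is filled at 0.92, and after the gamma cluster 4 genes are filled and lie between 0.85 and 1.37.

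Among 20 other protocadherin, Celsr, Fat and Dachsous genes, 17 were tested, with a median log2 fold change of 0.54. Of these, 2 were higher and 0 lower, against 7.22% and 7.11% of all genes tested. Besides Pcdh1 the gene called higher was Celsr3, a large cadherin relative that guides axons. It had 627 and 523 normalised reads in shPHF2 cells, against 88.7 in shControl (log2 fold change 2.68, SE 0.30; limma, adjusted p = 0.0047). Pcdh10 and Pcdh17 had the replicate gap of the gamma genes in a stronger form, with 749 and 2646 in shPHF2 cells, against 626 in shControl, for Pcdh10, and 118 and 745 in shPHF2 cells, against 71.8 in shControl, for Pcdh17. Neither passed the test (limma, adjusted p = 0.22 and 0.16). In Fat4, Fat3 and Celsr1 the gap ran the other way, with replicate 2 at 0.50, 0.54 and 0.58 times replicate 1.

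Neurons express these clusters strongly, so markers of other cells were read beside them. Of 9 neuron markers 0 were called, and they summed to 41324 and 40508 normalised reads in shPHF2 cells, against 61925 in shControl, most of it Map2. Their median log2 fold change was 0.47, with the opposite sign to the sum. Nefl and Nefm reached the minimum mean only through the shPHF2 libraries, which favours a positive median. The median gene, Dcx, had a log2 fold change of -0.484 in replicate 1 and 1.425 in replicate 2. Tubb3, a neuronal tubulin, had 198 and 346 in shPHF2 cells, against 104 in shControl (limma, adjusted p = 0.070), and Nefl had 0 reads in shControl. Map2, Rbfox3 and Snap25 had negative fits (log2 fold change -0.65, -2.00 and -0.32), and the other neuron markers had positive ones. Of 7 astrocyte markers S100b alone was called higher (limma, log2 fold change 1.54, adjusted p = 0.011), against 7.22% of all genes tested. The astrocyte markers summed to 8863 and 7608 in shPHF2 cells, against 9846 in shControl. Their median log2 fold change was 1.42, again opposite in sign to the sum, and Aqp4 had 0 reads in shControl. Gfap and Aqp4 reached the minimum mean only through the shPHF2 libraries, which favours a positive median. The median gene, Aldh1l1, had a log2 fold change of 0.06 in replicate 1 and 2.785 in replicate 2. Aldoc and Gja1 had negative fits (log2 fold change -0.95 and -0.53), and the other astrocyte markers had positive ones. Oligodendrocyte lineage markers summed to 64834 and 84165 in shPHF2 cells, against 69620.2 in shControl, and 0 of 6 tested were called. Microglial markers summed to 238 and 228 in shPHF2 cells, against 111 in shControl, endothelial markers to 334 and 176 in shPHF2 cells, against 290.1 in shControl, and fibroblast markers to 15.0 and 16.9 in shPHF2 cells, against 7.97 in shControl. Of these, 2 microglial and 2 endothelial markers could be tested and 0 were called, while 0 of the 5 fibroblast markers reached the minimum mean. Aif1 and Tmem119 had 0 reads in shControl, and Cldn5 had 0 reads in both shPHF2 libraries. The part of a changed mix of cells in the protocadherin levels was not tested.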

How the data were processed

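RNA was sequenced from 3 libraries of mouse neural stem cells, 2 of shPHF2 and 1 of shControl. The submitters' processing notes name the mm10 build and the tools HISAT2, HTSeq and DESeq2, per the labels. The sources used here do not give versions, the gene annotation or the use of strand, so overlapping and antisense genes are uncertain. The deposited table holds a signal for each gene and library, a read count that the authors scaled by the library's size factor, as the file headers and the values show. All values (100%) were whole multiples of 1 read within 0.001, with size factors of 1.20 and 0.829 for the shPHF2 libraries and 1.00 for shControl. The authors' deposited log2 fold changes, Wald score, p-values and adjusted p-values were used only where named. Of the library columns, 0 were left unused. The 4 rows that name no gene stayed out of all tests, and the largest, reads on no feature, held 44.0% and 38.7% of reads in the shPHF2 libraries and 42.7% in shControl.

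The test was limma 3.58.1 (R 4.3.3, eBayes with a mean-variance trend) on log2(value + 1), two-sided, over the 14148 genes whose mean reached 10. Genes were called at a Benjamini-Hochberg adjusted p under 0.05. The design leaves 1 residual degree of freedom, from the shPHF2 pair, moderated by 6.94 prior degrees of freedom, and assumes that the lone control varies like that pair. Fold changes of low genes are understated on this scale. The p-values rest on the spread of the shPHF2 pair, moderated over all genes tested, and shControl adds no spread of its own. The read ratios of alpha genes have exact binomial-based intervals for 95% counting error. Levels per kilobase use bases of GENCODE M21 exons that no other member shares. For some beta genes these lengths exceed the RefSeq ones, as for Pcdhb22 (6154 bases, against 3067), so their levels per kilobase depend on the annotation. The alternatives were edgeR 4.0.16 and DESeq2 1.42.0 on the recovered reads, other pseudocounts, filters and scalings, and leaving out each shPHF2 library. The limma script was tested on simulated data.

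The members and gene lists were chosen with earlier results of these data known. Every member could be named, with full statistics for those called and for C-type genes, and of each other list the called genes, at most 6, by absolute fold change. Genes named outside that rule were chosen after their values were seen. They were Ctcf, Dnmt3b, Hdac3, Slc25a2, Spry4, Pcdh10, Pcdh17, Fat3, Fat4, Celsr1, Olig1, Map2, Tubb3, Dcx, Nefl, Nefm, Rbfox3, Snap25, Aldoc, Gja1, Gfap, Aqp4, Aldh1l1, Aif1, Tmem119 and Cldn5. No sequences are shown.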

Additional observations from a re-analysis of the deposited data

How the results depend on the processing

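No paired analysis was possible because the control is a single library whose label carries no replicate number. The count of beta genes called higher was 2; it was 0 with a minimum mean of 1, with no filter, with quantile normalization and with limma without the trend, and 1 with DESeq2. The count of gamma genes called higher was 4, and 0 in the same 4 limma settings. Elsewhere it ran from 3 (pseudocount 5) to 6 (TMM factors, which added Pcdhga3 and Pcdhgb2). Among the genes called by edgeR 4 of 5, and by DESeq2 3 of 4, were the same gamma genes. In the 4 limma settings that ended the calls, the adjusted p of Pcdhb22 ran from 0.051 to 0.16 and that of Pcdhga7 from 0.11 to 0.22, and the fitted fold changes stayed above 0. The cause was not tested. The summed beta level, 0.52 on the log2 scale, was 0.435 with quantile normalization, and its median member 0.317 rather than 0.42. The summed gamma level, 0.32, was 0.795 without Pcdhgc3, an alternative added after seeing the data. The alpha median of 2.39 rests on 2 genes and was 1.56 with Pcdha12 at its bound. It was 2.877 and 1.321 with pseudocounts of 0.5 and 5, 1.62 with a minimum mean of 1, 1.241 with no filter, 1.589 with quantile normalization, 3.894 with edgeR and 3.617 with DESeq2, and had no value at a minimum mean of 50. Without 1 shPHF2 library no residual degree of freedom is left, so no calls were made; the summed log2 levels then ran from 1.60 to 2.34 for alpha, 0.46 to 0.57 for beta and 0.28 to 0.37 for gamma genes. Depth limits the alpha genes most, with 21 reads in the control.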
